A study of Drosophila melanogaster with 6 samples.

Results

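The Toll and Imd signalling genes are the 10 genes Rel, dl, Dif, cact, Tl, spz, imd, Tak1, key and pll, which carry NF-kappaB signalling in the immune system of Drosophila melanogaster. They were found by current symbol or older name in the probe annotation of the array. Of the 10 genes, 9 had at least 1 named probe set (12 probe sets of 18769 in all), and 8 were bright enough to be tested among 7801 genes. No probe set carried the name Tak1, so that gene was not analysed here, and the only probe set of Dif fell under the signal filter.

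Total RNA of whole male larvae in the third instar was hybridised to Affymetrix Drosophila Genome 2.0 arrays, with 50 larvae pooled in each of 3 separate preparations per genotype. The mutant group was y+ w roX1- roX2-/ Y (3 arrays), with the allele SMC17A at roX1, and the control group was y+ w roX1+ roX2-/ Y (3 arrays). Both groups thus lacked roX2 and carried y+ and w, so the control is wild type for roX1 but not for roX2. The RNAs of both genes are noncoding parts of the complex that raises transcription of the single male X chromosome, and the comparison asks what the loss of roX1 changes in males that already lack roX2. The labels mention no infection.

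In the Toll pathway the cleaved cytokine Spätzle (spz) binds the receptor Toll (Tl), which acts through the kinase Pelle (pll) to destroy the inhibitor Cactus (cact) and free the transcription factors Dorsal (dl) and Dif. In the Imd pathway the adaptor Imd (imd) acts through the kinase Tak1 and the IkappaB kinase complex, whose regulatory subunit is Kenny (key), so that the transcription factor Relish (Rel) is cleaved and enters the nucleus. Both routes switch on antimicrobial peptide genes, chiefly in the fat body. Toll signalling also sets the dorsoventral axis of the embryo.

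Signals are on a linear scale on which the median autosomal gene of each array is 100, and differences are mean log2 signals of the mutant less those of the control. Genes were taken to have passed where the adjusted p (Benjamini-Hochberg) was under 0.05 in a limma fit across all 7801 genes. Arrays of one genotype correlated across genes at 0.972 or higher, and arrays of different genotypes at 0.889 to 0.926. The labels name no scan date or other batch, and 3 arrays per group limit the precision of every value.

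The transcription factor genes Rel and dl were higher in the roX1 roX2 mutant, while spz, Tl and key were lower. Of the 8 genes tested, 2 passed as higher, against 23.1% of all genes, and 3 passed as lower, against 32.4%. The share that passed in either direction, 5 of 8 or 62.5%, lies near the 55.5% of all genes. The median difference of the 8 was -0.22, beside -0.06 over all genes. Mutant and control arrays did not overlap for 7 of the 8, cact being the exception, and 63.4% of all genes separated in this way.

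**Figure D1:**
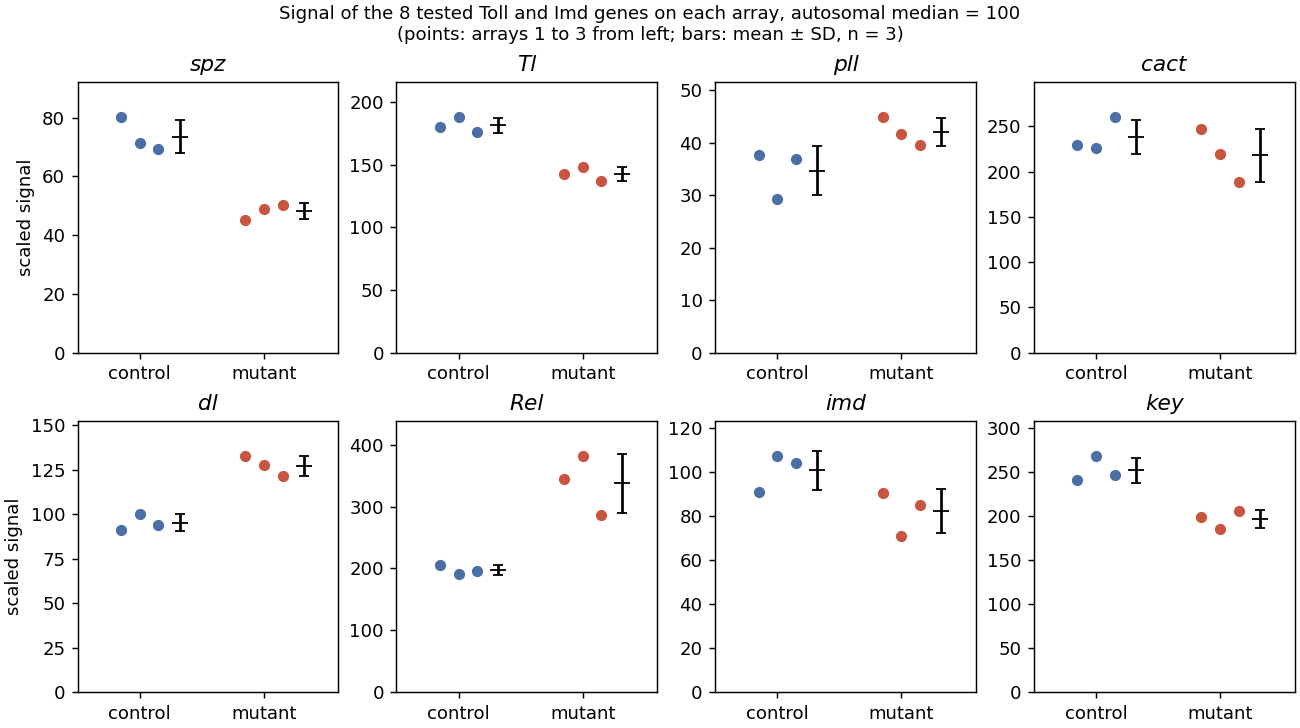
Scaled signal (linear axis from 0, median autosomal gene = 100) of the 8 tested genes on each array. Points are single arrays, control in blue and mutant in red, and the black bars give the mean ± SD (n = 3). Rel and dl sit higher on every mutant array, spz, Tl, key and imd lower, and cact overlaps.

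spz encodes the ligand of Toll. Its signal was 45.3, 49.0 and 50.4 in mutant larvae and 80.1, 71.3 and 69.3 in control larvae. All 3 mutant arrays lay below all 3 control arrays, and the spread within each group was small (SD 2.67 and 5.77). The mean fell from 73.6 to 48.2, a signal 1.52-fold lower (log2 -0.61, SE 0.0930, limma adjusted p = 0.00112). Of all genes tested, 12.5% fell at least as far. An offset of 50 on the signal before taking log2 shrank the difference to -0.33, which still passed.

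Tl encodes the Toll receptor itself. It gave 142, 148 and 137 in mutant larvae and 180, 188 and 176 in control larvae. The groups were well apart, and the mutant mean of 143 was 1.27-fold lower than the control mean of 181 (log2 -0.35, SE 0.0770, limma adjusted p = 0.00602). A second Tl probe set lay far under the filter, at 4.01 to 5.33 in the mutant and 4.89 to 7.07 in the control. Its groups overlapped, and its difference of -0.41 did not pass among all probe sets of 1 gene (adjusted p = 0.230).

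pll encodes the kinase that relays the Toll signal inside the cell. Its signal was 44.9, 41.7 and 39.6 in mutant larvae and 37.8, 29.3 and 36.9 in control larvae. Every mutant array was above every control array, but control array 2 stood low. The difference of 0.29 (SE 0.123, 95% interval 0.0021 to 0.57) did not pass (limma adjusted p = 0.0797), although it passed with all-gene median scaling (0.0490), quantile scaling (0.0441) and without rescaling (0.0285).

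cact encodes the IkappaB protein that holds Dorsal and Dif in the cytoplasm. Its brighter probe set gave 246, 220 and 188 in mutant larvae and 229, 226 and 260 in control larvae. The groups overlapped, with the lowest value on mutant array 3, and the difference of -0.13 (SE 0.115, 95% interval -0.40 to 0.13) did not pass (limma adjusted p = 0.355). The second cact probe set gave -0.16 (SE 0.122, adjusted p = 0.296 among all kept probe sets). The interval for cact holds both 0 and falls as large as those of Tl and key.

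dl encodes Dorsal, the NF-kappaB protein of the embryonic axis that also acts in larval immunity. Its signal was 133, 128 and 122 in mutant larvae and 91.1, 100.4 and 93.9 in control larvae, with all mutant arrays above all control arrays. The mean rose from 95.1 to 127, or 1.34-fold (log2 0.42, SE 0.0811, limma adjusted p = 0.0032). At least as large a rise was seen in 17.0% of all genes tested. The second dl probe set, at 81.0, 75.1 and 74.4 in mutant larvae and 56.8, 55.2 and 59.2 in control larvae, differed by nearly the same amount (log2 0.43, SE 0.0815, adjusted p = 0.00326 among all kept probe sets). The rise of dl was therefore measured by both of its probe sets.

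Dif, with 3 genes between it and dl on chromosome arm 2L, encodes the NF-kappaB protein that serves the Toll response in adult immunity. Its probe set read 11.5, 11.1 and 11.2 in mutant larvae and 11.2, 12.2 and 12.8 in control larvae. These values lie under the filter level of about 28.0, the median probe set, and the groups overlapped. Among all probe sets of 1 gene the Dif difference was -0.10 (SE 0.141, 95% interval -0.42 to 0.22, limma adjusted p = 0.599). At this brightness a real difference in Dif could go unseen.

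Rel encodes Relish, the NF-kappaB protein of the Imd pathway, and it moved furthest of the 8 genes. Its signal was 345, 381 and 287 in mutant larvae and 206, 191 and 195 in control larvae. The control arrays lay close together (SD 7.69), while the mutant arrays spread more (SD 47.5) with mutant array 3 lowest, and no mutant array came near the controls. The mean rose from 197 to 338, a fold of 1.70 with a 95% interval of 1.42 to 2.03 (log2 0.77, SE 0.111, limma adjusted p = 0.000881). Of all genes tested, 6.2% rose at least as far.

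imd encodes the death domain adaptor that gives the pathway its name. It gave 90.3, 70.9 and 85.3 in mutant larvae and 90.8, 107 and 104 in control larvae. Mutant array 1 and control array 1 were almost equal, and the groups only just failed to overlap. The difference of -0.30 (SE 0.115, 95% interval before adjustment -0.56 to -0.03) did not pass (limma adjusted p = 0.0566). It passed without mutant array 1 (log2 -0.37, adjusted p = 0.0259) and without control array 1 (log2 -0.37, adjusted p = 0.0412).

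key encodes Kenny, the regulatory subunit of the IkappaB kinase that acts on Relish. Its signal was 200, 186 and 206 in mutant larvae and 241, 268 and 247 in control larvae. The mutant mean of 197 was 1.28-fold lower than the control mean of 252 (log2 -0.36, SE 0.0823, limma adjusted p = 0.00727), and the groups did not overlap. At least as large a fall was seen in 26.3% of all genes tested. The falls of key and Tl depend on the scaling: on the deposited values without rescaling, where the median of all genes moved from -0.06 to 0.07, key stood at -0.23 (adjusted p = 0.0664) and Tl at -0.22 (adjusted p = 0.0625), and neither passed. The split over all genes turned as well, from 1805 higher and 2525 lower to 2406 higher and 1709 lower. Rel, dl and spz passed under each of the 15 alternatives.

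**Figure D2:**
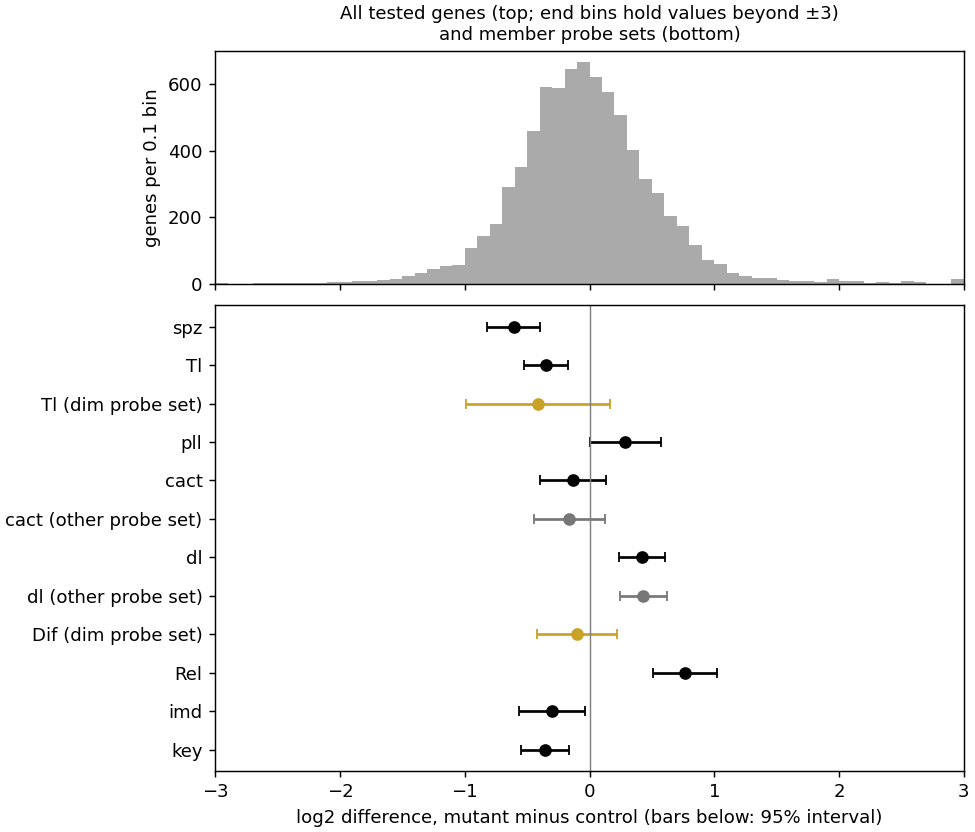
Log2 differences, mutant minus control, of all 7801 tested genes (top, genes per bin of 0.1) and of the 12 probe sets of the 9 named genes (bottom, points with 95% intervals). Black marks the tested probe sets, grey a second kept probe set and yellow those under the filter. Rel (0.77) and spz (-0.61) lie furthest from 0.

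**Figure D3:**
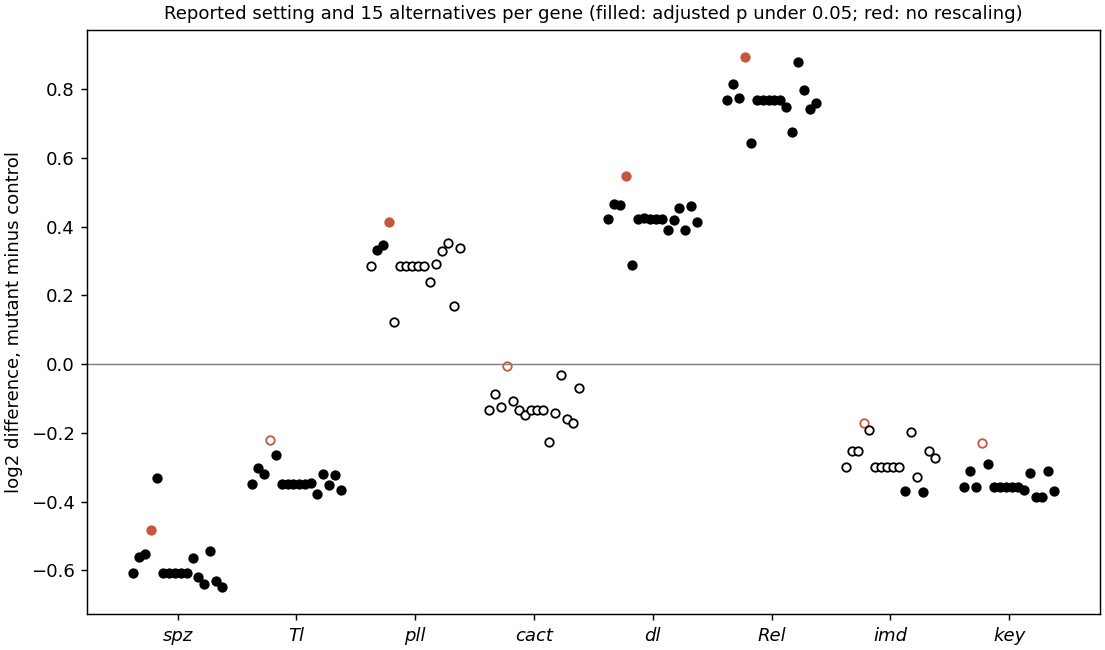
Log2 difference of each tested gene under the reported setting and 15 alternatives, side by side. Filled points passed, open points did not, and red marks the values without rescaling. No gene crosses 0, and the points of Rel, dl and spz are all filled.

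Ratios taken within an array do not depend on a factor applied to the whole array. The 6 pairs compared were chosen after the single values were seen, so they describe and do not test. The ratio of Rel to cact, expressed as log2 against the control mean, was 0.75, 1.06 and 0.88 in mutant larvae and 0.11, 0.03 and -0.14 in control larvae. The ratio of dl to cact stood at 0.43, 0.54 and 0.69 in mutant larvae and -0.01, 0.15 and -0.15 in control larvae. In both pairs the transcription factor gene was higher relative to cact on every mutant array, by 0.90 for Rel and 0.55 for dl on average. Cactus holds Dorsal and Dif, while Relish is freed by cleavage. Only the dl pair therefore sets a factor gene against the gene of its inhibitor. Rel also exceeded dl by 0.35 more in the mutant than in the control.

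The ligand gene spz was lower relative to its receptor gene Tl by 0.26, at -0.35, -0.29 and -0.14 in mutant larvae and 0.14, -0.09 and -0.04 in control larvae. The ratio of imd to key differed by 0.06, with the groups mixed.

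**Figure D4:**
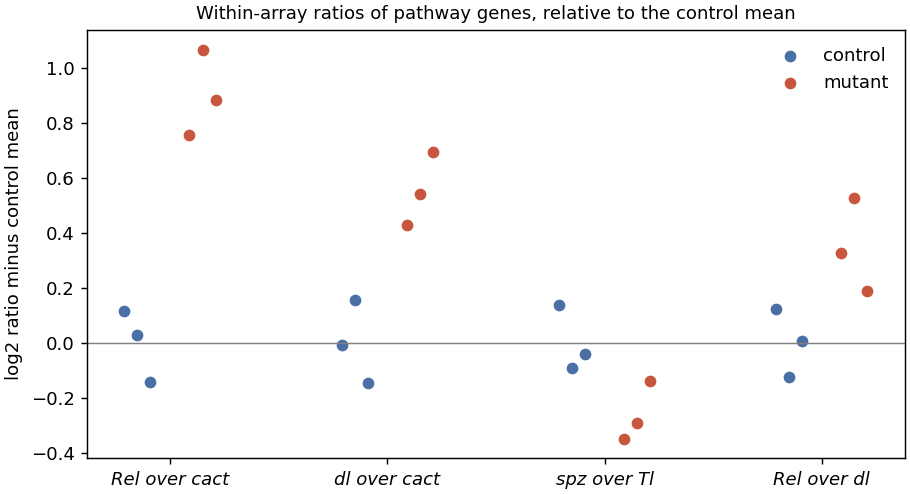
Log2 ratio of 2 genes on the same array minus the mean of that ratio on the control arrays, for 4 pairs. Each point is an array, control in blue and mutant in red. The mutant points of Rel over cact lie between 0.75 and 1.06.

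Other genes of the Toll pathway passed at about the rate of all genes. Of 42 listed, 34 had a named probe set and 21 were tested, of which 3 passed as higher and 9 as lower (median -0.20). That is 57.1% in either direction beside 55.5% of all genes, and without rescaling 6 passed as lower. Of the 9 tested that act upstream of Spätzle, grass, a serine protease gene (log2 0.51), Spn27A, a serpin gene (0.65), and GNBP3, a glucan recognition gene (0.31), rose, and GNBP3 lost its call without mutant array 2 (adjusted p = 0.0534). In the same list spirit, a protease gene on X (-1.08), pip, a sulfotransferase gene (-0.59), and wbl (-1.42) fell. pip had 10 named probe sets, and those other than the tested probe set lay under the filter. pip and wbl are known from the embryonic axis. Of the 10 tested that act downstream of the receptor, none passed as higher, beside 23.1% of all genes. Of these 10, 5 passed as lower (50%), beside 32.4% of all genes as lower and 55.5% either way. A difference from other genes was not tested. The 5 were led by Pli, a Pellino ubiquitin ligase gene (-1.01, SE 0.119, limma adjusted p = 0.000373). Next came Ulp1, a SUMO protease gene (-0.71), and Traf6 (-0.51), both on X, and aPKC (-0.30). The aPKC call was lost under 7 of the 15 alternatives, and the count of 5 dropped to 3 with all-gene median or quantile scaling, without rescaling, with the replicate block, and on leaving out mutant array 2, control array 2 or control array 3. The last of the 5 was wek (-0.27, limma adjusted p = 0.0375), which was not among the genes recomputed singly under the alternatives. The adaptor genes Myd88 (-0.06) and tub (0.04), which link Toll to Pelle, did not pass.

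Of the Toll-like receptor and Spätzle-like ligand genes, 2 of 11 were tested, 7 had probe sets under the filter and 2 had none named. Tollo, another Toll family receptor gene, fell by 0.33 (limma adjusted p = 0.00963, lost without rescaling at 0.108), and 18w stood at -0.04.

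Of 29 other Imd pathway genes listed, 25 were tested, with 6 passing as higher and 10 as lower (median -0.17). That is 64% in either direction, beside 55.5% of all genes. In the core of the pathway 8 of 10 passed (80%, beside the same 55.5%), 2 higher and 6 lower, and a difference from other genes was not tested. Dredd, the caspase that cleaves Relish, fell most: its signal was 63.5, 67.0 and 62.4 in mutant larvae and 129, 125 and 121 in control larvae (log2 -0.96, SE 0.0765, limma adjusted p = 0.000104). ben (-0.69) and Uev1A (-0.35), the ubiquitin-conjugating pair of the pathway, and PGRP-LE, an intracellular peptidoglycan receptor gene (-0.50), also fell. Dredd, ben and PGRP-LE lie on X, where 48.1% of all tested genes passed as lower. IKKbeta, the catalytic partner of Kenny, fell (-0.57), while Tab2, the partner of Tak1 (0.37), and Diap2, a ubiquitin ligase gene (0.57), rose. These last 3 were named after their values were seen.

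Of the 15 tested negative regulators of the Imd pathway 4 passed as higher and 4 as lower (53.3%, median -0.06). PGRP-LB, an amidase that breaks down peptidoglycan, rose by 0.62 and PGRP-LF by 0.58. SkpA, a ubiquitin ligase subunit encoded on X, fell by 0.59, and CYLD, a deubiquitinase gene, fell by 0.38.

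Of the 5 tested X-linked genes in the Imd lists 4 fell, namely Dredd, ben, PGRP-LE and SkpA. Of the 5 in the Toll lists 3 fell, namely spirit, Ulp1 and Traf6, beside 48.1% of all tested X-linked genes. Of the 10 members Tak1 alone lies on X, and it was not measured. The JNK branch, which Tak1 also feeds, was listed together with genes of its TNF input such as grnd. It held 12 tested genes, of which none rose and 6 fell (median -0.30). The 6 make 50%, beside 32.4% of all genes as lower, and 23.1% of all genes passed as higher. In either direction 55.5% of all genes passed, and a difference from other genes was not tested. Without rescaling 3 of the 12 fell. The 6 of the reported setting included grnd, a TNF receptor gene (-0.92), bsk, the JNK gene (-0.60), Mkk4 (-0.47) and msn (-0.42), and 1 of the 6, hep (-0.45), lies on X. The msn call was lost under 3 of the 15 alternatives and the hep call under 9.

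**Figure D5:**
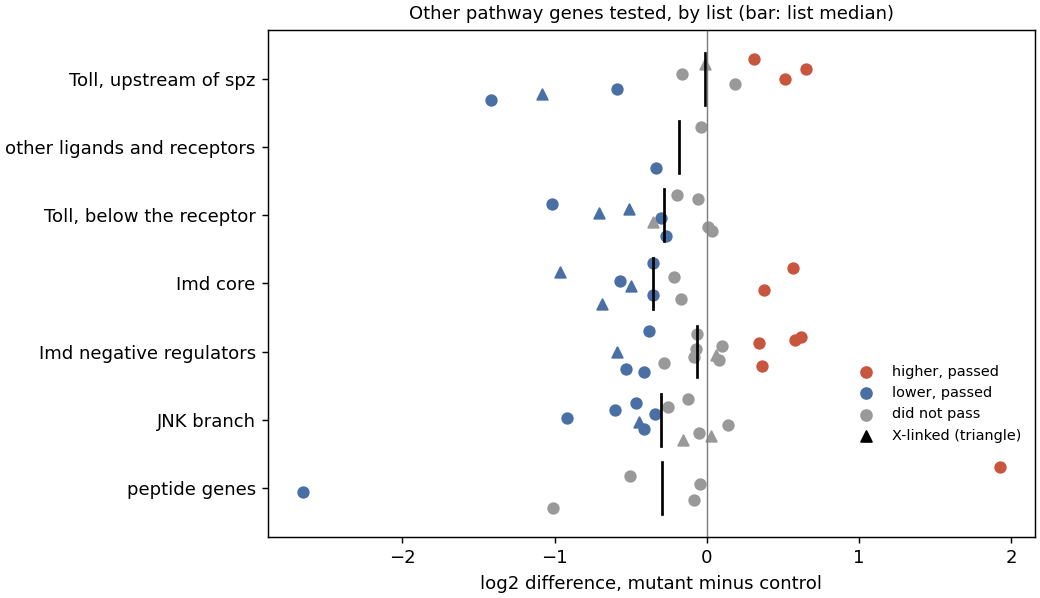
Log2 difference, mutant minus control, of the other tested genes by list. Red points passed as higher, blue as lower and grey did not pass, triangles are X-linked genes and black bars are list medians. No gene of the JNK branch or of the Toll list below the receptor is red, while 23.1% of all genes passed as higher.

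The list of antimicrobial peptide and Bomanin genes holds known targets of Relish, Dif and Dorsal. It was thinly covered: 6 of 24 were tested (median -0.29), and 11 had no named probe set. Among the 6 are the drosomycin-like genes Drsl2, Drsl5 and Drsl6, and whether these answer to the 3 factors was not tested. BomS2, a Bomanin gene, passed as higher (log2 1.92, limma adjusted p = 0.0415) with overlapping arrays, Drsl5 passed as lower (-2.65, adjusted p = 0.0131), and 4 did not pass. In either direction 33.3% of the 6 passed, beside 55.5% of all genes. BomS2 lost its call under 6 of the 15 alternatives, and Drsl5 with robust eBayes and without control array 2.

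Mutant array 3 was the highest of all 6 arrays in 4 of the 6 tested peptide genes. Drs, the drosomycin gene read out by Toll, gave 359, 255 and 905 in mutant larvae and 679, 521 and 665 in control larvae. Mtk, the metchnikowin gene, gave 59.6, 28.2 and 382 in mutant larvae and 139, 195 and 193 in control larvae. On mutant arrays 1 and 2 both genes lay below every control array, and on mutant array 3 both lay above every control array. BomS2 was also highest on mutant array 3, at 544, beside 169 on mutant array 1, 105 on mutant array 2 and 129, 48.8 and 28.0 in control larvae. Drsl6, a dim gene, was likewise highest on it (99.0, beside 17.5 and 14.9 in the other mutant arrays and 19.1 to 49.6 in the control), while for Drsl5 and Drsl2 mutant array 3 lay between the other mutant arrays.

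With all arrays Drs stood at -0.50 (SE 0.400, limma adjusted p = 0.314) and Mtk at -1.01 (SE 0.802, adjusted p = 0.312), and neither passed. Without mutant array 3, Drs passed as lower at -1.03 (adjusted p = 0.00293) and Mtk at -2.08 (adjusted p = 0.00174). Over the other alternatives neither passed. The calls of the signalling genes held without that array: Rel then stood at 0.88, dl at 0.45, spz at -0.64, Tl at -0.32 and key at -0.39, and each still passed.

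In whole larvae, fewer cells of a type and less RNA per cell cannot be told apart. The fat body and hemocytes are the main immune tissues, and most of their markers passed the signal filter: 14 of 16 hemocyte, 11 of 11 fat body and 6 of 6 midgut marker genes with a named probe set. The hemocyte genes PPO3 and lz were under it, and no marker was at or below 0 on any array. The summed hemocyte signal was 1937 to 2353 in the mutant and 1939 to 2351 in the control, and the fat body sum was 10401 to 12201 and 10766 to 11079, so both overlapped. The midgut sum overlapped too, at 5500 to 6052 and 5461 to 6206. Bright genes weigh most in such sums. In the fat body, mutant and control means were 2819 and 3017 for Lsp2, 1968 and 2354 for Fbp1, and 985 and 191 for FASN1. Fbp1, which passed, and Lsp2, which did not, were lower on every mutant array. Single markers moved: of 14 tested hemocyte markers 4 fell, among them He (-0.91), eater (-0.67) and crq (-0.44), and Hml rose (0.75), in all 35.7% beside 55.5% of all genes. Leaving out mutant array 1 brought the hemocyte markers passing as higher to 5, and leaving out control array 1 brought them to 4. Of 11 tested fat body markers 4 rose, with FASN1 at 2.35 and ACC at 1.75, and 3 fell, with mdy at -1.24, in all 63.6% beside 55.5% of all genes. These 3 named genes moved furthest, and the median difference of the 11 was -0.09. Of 6 tested midgut markers 1 rose, nub (0.35), and 1 fell, Jon65Aiii (-0.17), in all 33.3% beside the same 55.5%. These calls were lost under 6 and 7 of the alternatives. The part of these tissues in the differences of Rel, dl, spz, Tl and key was not tested.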

How the data were processed

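The deposited values are linear intensity values per probe set, 1 column per array, from single-colour arrays. GCOS 1.2 is named in the submitters' processing notes. The authors scaled each array to an autosomal median of 100, per the labels' design text, a description the deposited medians (100.3 to 106.8 over all probe sets) could not be matched to, and filtered on detection calls, which were not used here. How probes were summarised is not stated in those sources.

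Of 18769 probe sets other than controls, 13647 had 1 gene in the platform annotation, updated through the RefSeq genes of the assembly Release 6 plus ISO1 MT (13544 by gene ID, 6 by symbol, 85 by older name, 12 unmatched). That annotation can be old, and probe sets listing several genes or no gene were not named. Values not above 0 took the smallest positive value of their array. Probe sets in the upper 50% of mean log2 signal across the 6 arrays were kept, each gene was represented by its brightest probe set, and each array was multiplied by 1 factor (0.246 to 0.280) bringing the median kept autosomal gene to 100. No offset was added before log2.

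The test was limma 3.58.1 (lmFit and trended eBayes, run in R 4.3.3) on 3 mutant and 3 control arrays, with group as the only term and adjusted p under 0.05. The same fit was run on simulated data, where every gene had the same spread and few genes changed. That setting differs from these arrays, so it cannot show how the test performs on them. P-values measure the spread between preparations. The members and lists were chosen with earlier results of these data known. All members are named, and from each other list up to 4 genes of smallest p that passed without overlap of the groups. Some others, such as adaptors or readouts of the pathway, are named by no fixed rule, after their values were seen. Not every gene that passed is named. Alternatives covered scaling, offset, filter, probe set choice, variance moderation, a replicate block and leaving out each array. Single probe sets beyond the brightest were tested as alternatives chosen after seeing the data. Protein and promoter sequences were not used here.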

Additional observations from a re-analysis of the deposited data

How the results depend on the processing

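Under the 15 alternatives tried no named gene that passed and was recomputed changed direction. Of those that did not pass, 18w (-0.04) turned to 0.0099 with all-gene scaling and 0.090 without rescaling, and ran from -0.24 to 0.10 on leaving out 1 array, and Myd88 (-0.06) turned to 0.067 without rescaling and ran from -0.11 to 0.041. The count of members passing as lower was 1 without rescaling, where Tl and key were lost, and ran from 3 to 4 on leaving out 1 array. Members passing as higher stayed at 2 on leaving out 1 array and numbered 3 with all-gene or quantile scaling and without rescaling. Over all genes, leaving out 1 array gave 1409 to 1819 higher and 2112 to 2509 lower. The other Toll genes then gave 2 to 3 higher and 7 to 9 lower, and the other Imd genes 5 to 6 and 8 to 10. The dim Tl probe set, added after seeing the data, did not pass. Arrays of like number showed no positive correlation: deviations from the group means correlated at -0.342, -0.0644 and -0.385 between mutant and control arrays 1, 2 and 3. Deviations within a group of 3 arrays sum to 0, so these values cannot settle whether samples were paired. Between arrays of unlike number the correlations ran from -0.358 (mutant 2 with control 3) to 0.508 (mutant 1 with control 3). With the replicate number as a block 1529 genes passed as higher and 2166 as lower, with 2 and 3 of the members. Over the named genes that were recomputed, 44 values lost their call under an alternative and 7 gained one. The cause was not tested. Dim signal limits what can be said of Dif and of 7 of the 24 peptide genes, and 11 of those had no named probe set.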

Other observations

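The chromosomal surroundings of the members did not share one direction. Over all tested genes 23.1% passed as higher and 32.4% as lower. A difference of any set of neighbours from these shares was not tested. Among the 5 tested genes on each side of Rel, 1 was higher and 4 were lower, with a median log2 difference of -0.08. Around dl 1 was higher and 1 lower (median 0.00), and around cact none was higher and 5 were lower (median -0.34). Tl, spz and pll lie on arm 3R with 39 genes between Tl and spz and 36 between spz and pll. Around Tl 2 of 10 neighbours were higher and 1 lower, around spz 3 and 4, and around pll 5 and 3 (median 0.32). Around imd 4 were higher and 1 lower (median 0.37), and around key 2 and 2. Around Tak1, which was not measured, 1 of 10 X-linked neighbours was higher and 4 were lower (median -0.28), beside 48.1% of all tested X-linked genes as lower.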
